A study of Homo sapiens with 2 samples.

Results

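The 9 genes described here are FOXA1, FOXA2, GATA3, GATA6, HNF4A, NR2F2, NR2F6, ELF3 and CEBPA. They encode transcription factors grouped here under endoderm and lung lineages, though not all are specific to these. They were taken by gene symbol, with earlier results of these data known, from the 13137 genes of a digital gene expression table, and all 9 were found. The cells were A549, a human lung adenocarcinoma line, carrying an H1TetO cassette that makes a short hairpin RNA when doxycycline is present. One line expressed a hairpin against SOX2 (shRNA-SOX2) and the other a scrambled hairpin (shRNA-Con), and both were collected after 4 days in doxycycline. Each line was a puromycin-selected pool of lentivirus-infected cells rather than a clone, 1 hairpin sequence was used per arm, and 1 library was made from 4 µg of total RNA for each line. With 1 library per line there was no replicate error, so every test below compares the libraries and not the conditions, and every interval covers counting error only.

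Several of these factors act early in the formation of endodermal organs and stay on in the epithelia that arise from them. FOXA and GATA proteins can bind their sites in closed chromatin and are often called pioneer factors, and HNF4A, C/EBP alpha and the nuclear receptors then act at many of the enhancers so opened. In the lung, FOXA2, GATA6 and C/EBP alpha take part in alveolar maturation and surfactant gene expression, whereas GATA3 and HNF4A are better known from other epithelia and from liver and gut.

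The libraries held 2304184 gene tags (shRNA-Con) and 2093816 gene tags (shRNA-SOX2), so 1 tag was worth 0.434 and 0.478 CPM, the unit of level used here (tags per 1000000 gene tags). A gene with 0 tags may still be present, with a 95% Poisson interval that reaches 1.6 CPM in shRNA-Con and 1.76 CPM in shRNA-SOX2. For log2 fold changes, counts under 3 were set to 3, which is 1.3 and 1.43 CPM. The column names of the table do not spell out the conditions. SC was read as shRNA-Con and S1 as shRNA-SOX2, and the opposite reading would turn every direction below around. SOX2, the gene targeted by the hairpin, had 16 tags in shRNA-Con against 23 tags in the other library, a ratio of 1.58 with a 95% interval of 0.8 to 3.2 (adjusted p = 0.333, Fisher's exact test). It was not lower where the hairpin should lower it, so that library is called by its label throughout. Where a pair of values is given, that of shRNA-Con comes first. Keratins of simple epithelia were abundant, with 7702 KRT8 tags in shRNA-Con against 12729 in the other library, and 10318 KRT18 tags against 7887. Epithelial markers were uneven, since 6 of the 11 listed had at least 20 tags in both libraries together. Of 8 fibroblast markers 3 were listed with 46 and 54 tags in all, of 7 endothelial markers 1 was listed with 3 and 0 tags, and of 8 leukocyte markers 4 were listed with 15 and 21 tags. Markers of alveolar type II cells were uneven, and 5 of the 10 listed had at least 20 tags in both libraries together. The surfactant gene SFTPD had 0 and 3 tags, whereas LPCAT1 had 217 and 227 and ABCA3 56 and 45. SFTPB, SFTPC and NKX2-1 were not analysed here.

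Promoters of FOXA1 and GATA3, genes whose tag counts differed between the libraries, are shown for reference, since the experiment was aimed at a transcription factor. They run from 250 bases before to 50 bases after an annotated start, are given 5′ to 3′ in the direction of the gene, and come from RefSeq on GRCh38.p14. Capitals mark the letters CATTGT, the reverse complement of the SOX core ACAATG. The FOXA1 promoter lies on the minus strand at chr14:37595200-37595499 and the GATA3 promoter, chosen from 6 for that gene because it holds these letters, on the plus strand at chr10:8060207-8060506.
FOXA1: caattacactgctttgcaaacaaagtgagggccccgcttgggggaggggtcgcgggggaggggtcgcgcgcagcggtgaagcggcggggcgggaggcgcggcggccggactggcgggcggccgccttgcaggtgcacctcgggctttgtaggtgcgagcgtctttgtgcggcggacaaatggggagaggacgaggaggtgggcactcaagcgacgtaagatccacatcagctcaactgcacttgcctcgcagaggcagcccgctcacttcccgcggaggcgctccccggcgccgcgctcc
GATA3: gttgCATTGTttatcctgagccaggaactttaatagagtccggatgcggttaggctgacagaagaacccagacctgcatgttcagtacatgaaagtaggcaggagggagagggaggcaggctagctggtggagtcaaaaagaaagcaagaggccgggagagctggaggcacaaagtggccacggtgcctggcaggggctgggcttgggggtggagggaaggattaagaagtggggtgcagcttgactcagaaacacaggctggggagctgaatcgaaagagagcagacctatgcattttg
The FOXA1 window is rich in G and C (69.3%) with 34 CpG, and holds none of the 7 motifs searched. The GATA3 window has 54.3% G and C with 5 CpG, and its SOX match begins at base -246 from the start.

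RefSeq promoters were found for 7 of the 9 genes, 14 promoters in all. FOXA2 and NR2F6 were not matched. Both strands were searched. For SOX factors the letters were ACAATG, and for the FOXA group they were TGTTTAC. Sites of the GATA factors were searched by the core AGATAA. The HNF4 search used the run CAAAGTC, and the core of an NR2F site was taken as AGGTCA. C/EBP letters were TTGCGCAA, and those of the ETS family were CCGGAAG. No motif contains another. Apart from the SOX match in GATA3, the ETS letters occurred once, in the GATA3 promoter at chr10:8045083-8045382, and the GATA letters once, in the HNF4A promoter at chr20:44355449-44355748. Over all 35116 promoters of this length, 10.8% held the SOX letters, against 1 of the 14 promoters of these factors, and 10.3% held the ETS and 10.3% the GATA letters. The other shares were 3.42% for FOXA, 3.37% for HNF4, 13.8% for the NR2F core and 0.151% for C/EBP. A match of letters is a description of the sequence only.

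All 9 factors were detected in both libraries, over a range of levels from 1.74 to 128.5 CPM in shRNA-Con. Each transcript is taken to contribute 1 tag and not reads along its length, so CPM levels are compared between genes without division by length. The yield of tags may differ between genes and was not corrected for, which limits the order given next. The order in shRNA-Con was ELF3, NR2F6, FOXA2, NR2F2, CEBPA, GATA3, FOXA1, GATA6 and HNF4A. Neighbours whose 95% Poisson intervals overlapped were FOXA2 and NR2F2, CEBPA and GATA3, FOXA1 and GATA6, and GATA6 and HNF4A. The library labelled shRNA-SOX2 had a different order, with NR2F6 first, ELF3 next and then NR2F2, FOXA2, GATA3, FOXA1 and CEBPA, each overlapping its neighbour, ahead of GATA6 and HNF4A, which also overlapped. The plot of levels sets the libraries side by side.

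Of the 9 factors, 3 had more tags under the SOX2 label and passed the test, namely NR2F6, FOXA1 and GATA3, 0 were lower and 6 did not pass. Tags were compared with Fisher's exact test, adjusted by Benjamini and Hochberg's method across 13137 genes, at a false discovery rate (FDR) of 0.001, the level used by the study. At that level 9.53% of all genes were higher and 12.2% were lower. Among the 703 genes that the table gives a transcription factor term, 6.97% were higher and 13.5% were lower. The same 3 of the 7 factors with at least 20 tags had a log2 fold change of at least 1, against 10.4% of the 10045 genes with at least 20 tags. With so few genes these shares were not tested against each other. The test needs tags to make a call, since no gene with fewer than 12 tags in both libraries together was called. HNF4A lay under that number. In bulk RNA, fewer cells making a transcript and less of it per cell cannot be told apart, which holds for each difference given here.

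FOXA1, a forkhead pioneer factor of endoderm and of breast and prostate epithelium, had 14 tags in shRNA-Con against 53 in the library labelled shRNA-SOX2. These are 6.08 (3.32 to 10.2) and 25.3 (19.0 to 33.1) CPM, with 95% Poisson intervals that do not overlap. The ratio was 4.17 with a 95% interval of 2.28 to 8.13, or 2.06 on the log2 scale (adjusted p = 1.68e-06, Fisher's exact test). By level FOXA1 stood above 28.4% of the genes in shRNA-Con and above 57.2% in the other library.

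FOXA2, its close relative and a regulator of airway and alveolar differentiation, was the more abundant of the pair in both libraries. It had 118 and 92 tags, or 51.2 CPM in shRNA-Con against 43.9 CPM under the SOX2 label. The ratio was 0.858 with an interval of 0.646 to 1.14 (adjusted p = 0.437, Fisher's exact test), an interval that holds differences of either sign.

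GATA3, a zinc finger factor best known from T cells and from mammary and urothelial epithelium, had 36 and 80 tags. Its level went from 15.6 (10.9 to 21.6) to 38.2 (30.3 to 47.6) CPM, a ratio of 2.45 with an interval of 1.63 to 3.73. The log2 fold change was 1.29 (adjusted p = 2.59e-05, Fisher's exact test). GATA3 was also the called factor with the smallest fold. Its call depends on the test. When edgeR's exact test was given a coefficient of variation of 0.1, assumed for the spread between cultures, its adjusted p was 0.00244, which is past 0.05 but not past 0.001.

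GATA6, the GATA factor of distal lung epithelium and primitive endoderm, was near the limit of detection with 7 and 9 tags. The ratio was 1.41 with an interval of 0.469 to 4.47 (adjusted p = 0.737, Fisher's exact test). HNF4A, the nuclear receptor that controls much of the hepatocyte and intestinal programme, had 4 tags in each library. Its ratio of 1.1 has an interval of 0.205 to 5.91 (adjusted p = 1, Fisher's exact test), and at this depth a several-fold difference in either direction was not detectable.

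NR2F6, also called EAR2, is an orphan nuclear receptor of the COUP-TF group and acts mostly as a repressor. It had 177 tags in shRNA-Con against 655 in the library labelled shRNA-SOX2, the largest tag difference among the 9. Its level was 76.8 (65.9 to 89.0) and 312.8 (289.3 to 337.7) CPM. The ratio was 4.07 with an interval of 3.44 to 4.84, or 2.03 on the log2 scale (adjusted p = 1.05e-73, Fisher's exact test). NR2F6 stood above 80.7% of the genes in shRNA-Con and above 96.5% in the other library. It was the factor that kept its call with edgeR's exact test at an assumed coefficient of 0.2, with an adjusted p of 0.000592, where FOXA1 had 0.0171 and GATA3 0.113.

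NR2F2, or COUP-TFII, a receptor of the same group that acts in venous, mesenchymal and some epithelial cells, had 100 and 95 tags. The ratio was 1.05 with an interval of 0.781 to 1.4 (adjusted p = 0.863, Fisher's exact test). Its log2 fold change was 0.06 per gene tag and -0.05 per clean tag (all filtered tags of a library, on a gene or not), so it has no settled sign.

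ELF3, an epithelium-specific ETS factor, was the most abundant of the 9 in shRNA-Con with 296 tags, against 257 under the SOX2 label. The levels were 128.5 (114.2 to 144.0) and 122.7 (108.2 to 138.7) CPM. The ratio was 0.955 with an interval of 0.805 to 1.13 (adjusted p = 0.73, Fisher's exact test), the narrowest interval among the 6 factors that were not called. ELF3 stood above 88.9% of the genes in both libraries.

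CEBPA, whose product C/EBP alpha favours differentiation over division in lung, liver and myeloid cells, had 46 and 30 tags, with Poisson intervals of 14.6 to 26.6 CPM and 9.67 to 20.5 CPM that overlap. The ratio was 0.718 with an interval of 0.437 to 1.16 (adjusted p = 0.292, Fisher's exact test). It had the lowest fold of the 9, and its interval includes both a halved level and no difference.

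**Figure D1:**
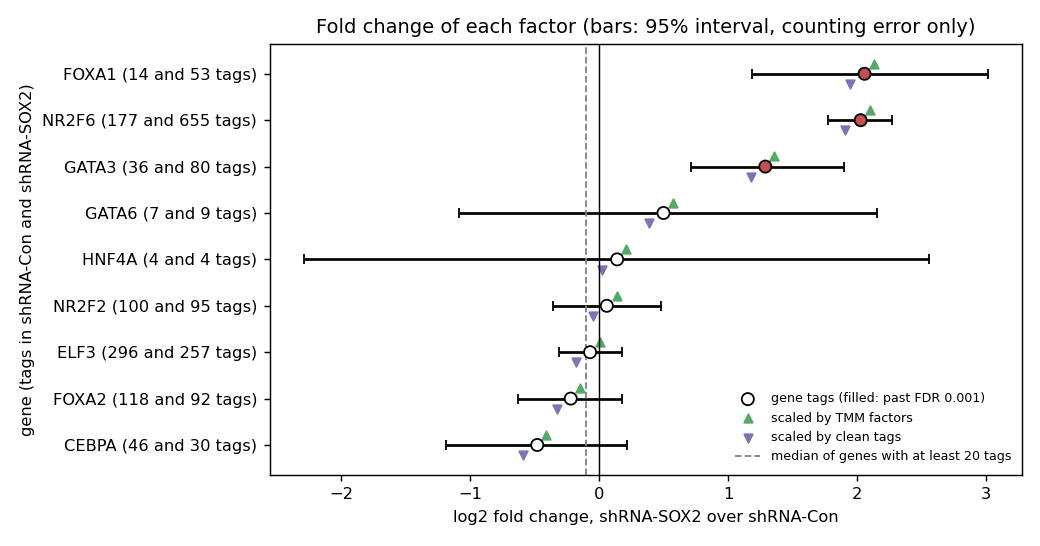
Log2 fold change of each factor, the SOX2-labelled library over shRNA-Con, with circles for scaling by gene tags (filled where past FDR 0.001), bars for the 95% interval from counting error, triangles for 2 other scalings and a dashed line at the median of genes with at least 20 tags, -0.10. NR2F6, FOXA1 and GATA3 stay above 1 under each scaling shown, whereas ELF3 and NR2F2 lie near 0 and change sign with it.

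The plot of folds also shows how the scalings shift all factors alike. The median log2 fold change over genes with at least 20 tags was -0.10 per gene tag, -0.03 after TMM scaling, which sets the bulk of genes level, and -0.22 per clean tag, so the scalings moved every gene by less than the gap between these 3 factors and 0. As annotated in GENCODE release 29, each of the 9 genes overlaps another gene, 7 of them one on the opposite strand, and none of those 18 overlapping genes has a row in the table. Whether tags were assigned by strand is not given in the sources used here, so tags of such neighbours could not be told apart.

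The balance within each family needs no scaling between libraries, since it is a share of the family's own tags. FOXA1 made up 10.6% (95% Clopper-Pearson interval 5.92 to 17.2) of 132 FOXA1 and FOXA2 tags in shRNA-Con and 36.6% (28.7 to 44.9) of 145 in the library labelled shRNA-SOX2. The third member, FOXA3, which acts in liver and gut, had 15 and 0 tags and was lower (adjusted p = 0.000386, Fisher's exact test). With 0 tags set to 3 FOXA3 was 4.54-fold lower, and the 95% interval of its ratio ran from 0 to 0.307. In edgeR's exact test at an assumed coefficient of 0.1 its adjusted p was 0.00186, which does not pass 0.001. The summed FOXA tags were 147 and 145, or 63.8 and 69.3 CPM.

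NR2F6 took 63.9% (57.9 to 69.6) of 277 NR2F2 and NR2F6 tags in shRNA-Con and 87.3% (84.7 to 89.6) of 750 in the library labelled shRNA-SOX2. NR2F1, the remaining COUP-TF, had 0 and 5 tags and was not called (adjusted p = 0.0628, Fisher's exact test). Of the 9 factors' summed tags, 798 and 1275, NR2F6 held 22.2% (19.3 to 25.2) and 51.4% (48.6 to 54.1), and ELF3 37.1% (33.7 to 40.5) and 20.2% (18.0 to 22.5).

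GATA genes summed to 43 and 109 tags, of which GATA3 held 83.7% (69.3 to 93.2) and 73.4% (64.1 to 81.4), intervals that overlap. GATA2, GATA4 and GATA5 each had 0 tags in shRNA-Con, against 8, 4 and 8 in the other library. None of the 3 was called, with adjusted p of 0.0092, 0.114 and 0.0092 by Fisher's exact test. For the HNF4 pair, HNF4G had 14 and 23 tags and was the more abundant in both libraries, though it was not called (adjusted p = 0.194, Fisher's exact test).

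In the C/EBP family 3 of the 5 listed genes were lower and 0 higher, beside 12.2% lower and 9.53% higher of all genes. These genes were also deeper, with 4 of the 5 at 100 tags or more, against 6237 of all 13137 genes. The shares were not tested against each other. With edgeR's exact test 3 of the 5 were called at an assumed coefficient of 0.1 and 1 at 0.2. The family had 2397 summed tags in shRNA-Con against 860 in the library labelled shRNA-SOX2. CEBPB, an inflammatory and stress-responsive member, had 1363 and 461 tags, or -1.43 on the log2 scale (adjusted p = 3.19e-83, Fisher's exact test). CEBPG, with 582 and 104 tags, and DDIT3, the stress-induced member also known as CHOP, with 134 and 29 tags, were lower by the same test. CEBPD, with 272 and 236 tags, and CEBPA did not pass it. The share of CEBPA in the family was 1.92% (1.41 to 2.55) and 3.49% (2.37 to 4.94), a share whose denominator is set by CEBPB and CEBPG. ELF3 made up 87.1% (83.0 to 90.4) and 86.5% (82.1 to 90.2) of the tags of ELF3 and its relative EHF, which had 44 and 40 tags.

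Among 46 other transcription factors of endoderm and lung lineages 31 were listed, and 5 of these were higher, 4 lower and 22 not called. The shares were 16.1% higher and 12.9% lower, against 9.53% and 12.2% of all genes. The median log2 fold change of the 24 with at least 20 tags was 0.21, against -0.10 for all such genes. The higher ones were ID2, a helix-loop-helix inhibitor found in distal lung tips, with 156 and 320 tags (log2 fold change 1.17), FOXP4 with 89 and 177 tags (1.13), the retinoic acid receptor RARB with 53 and 148 tags (1.62), NR5A2, a receptor of gut and liver, with 65 and 127 tags (1.10), and ONECUT2 with 12 and 47 tags (2.11). The lower ones were CEBPB, CEBPG, FOXA3 and FOXP1, the last with 57 and 16 tags (-1.69 on the log2 scale, adjusted p = 5.67e-05, Fisher's exact test). Per clean tag the counts became 5 higher and 6 lower, and with TMM factors 6 higher and 4 lower. At an assumed coefficient of 0.1, edgeR's exact test called 6 of these genes in place of 9, and NR5A2, FOXP1 and FOXA3 were lost. At 0.2 it called 1.

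Well-counted lineage factors that did not pass the test included SMAD3 with 393 and 272 tags, SOX9, a SOX factor of the lung bud tips, with 117 and 163 tags, and KLF5 with 131 and 132 tags. HHEX had 121 and 117 tags and ETV5 133 and 76 tags. SMAD3, SOX9 and ETV5 had adjusted p of 0.00226, 0.00174 and 0.00428 by Fisher's exact test, so they passed 0.05 but not 0.001.

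In the wider families the called shares of nuclear receptors (8.57% higher, 8.57% lower) and of forkhead genes (8.33% higher, 8.33% lower) were near or under those of all genes, 9.53% and 12.2%. Of 48 nuclear receptors 35 were listed, with 3 higher (NR2F6, RARB and NR5A2) and 3 lower. The lower ones were NR0B1, an orphan repressor, with 432 and 256 tags, RARA with 143 and 55 tags and NR2C2 with 68 and 19 tags. The retinoic acid receptors thus differed in opposite directions, by 1.62 for RARB (adjusted p = 1.51e-12, Fisher's exact test) and by -1.24 for RARA (adjusted p = 1.26e-07, Fisher's exact test) on the log2 scale. Of 37 forkhead genes 24 were listed, with 2 higher (FOXA1 and FOXP4) and 2 lower (FOXA3 and FOXP1). Of 25 ETS genes 19 were listed, with 0 higher and 2 lower, namely ETS1 with 61 and 12 tags and ETS2 with 181 and 98 tags. At an assumed coefficient of 0.1, edgeR's exact test called 4 of the 6 nuclear receptors, 2 of the 4 forkhead genes and 1 of the 2 ETS genes. At 0.2 it called 1 nuclear receptor, 0 forkhead genes and 0 ETS genes.

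Cofactors of these factors were lower where Fisher's exact test called them. Of 22 cofactor genes 18 were listed, with 0 higher, 6 lower and 12 not called. The lower share was 33.3%, whereas 12.2% of all genes were lower and 9.53% higher. The median log2 fold change of the 14 cofactors with at least 20 tags was -0.62, against -0.10 for all such genes. Depth differed, since 13 of the 18 had at least 100 tags, against 6237 of all 13137 genes, and the shares were not tested against each other. With TMM factors 1 cofactor was higher and 6 were lower. At an assumed coefficient of 0.1, edgeR's exact test called 3 cofactors, and CREBBP, NCOR1 and PPARGC1A were lost with adjusted p of 0.00782, 0.00175 and 0.00314. At 0.2 it called 0 cofactors. TLE1, a Groucho corepressor bound by FOXA proteins, had 316 and 104 tags (-1.47 on the log2 scale, adjusted p = 2.17e-20, Fisher's exact test). NCOR1, a corepressor of nuclear receptors, had 109 and 42 tags. The acetyltransferase gene CREBBP had 236 and 118 tags and the Mediator subunit MED1 had 193 and 61 tags. PPARGC1A, a coactivator of HNF4A in liver, had 14 and 0 tags and was lower (adjusted p = 0.000707, Fisher's exact test). With 0 tags set to 3 PPARGC1A was 4.24-fold lower, and the interval of its ratio from counting error ran from 0 to 0.332.

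Genes of liver and gut epithelium, many of them bound by FOXA, HNF4A and C/EBP factors in those organs, were higher where Fisher's exact test called them. Both lists were chosen with earlier results of these data known. Of 38 genes for liver-type secreted proteins and enzymes 23 were listed, with 4 higher (17.4%), 0 lower and 19 not called. Of all genes 9.53% were higher and 12.2% lower. Over the 12 liver-type genes with at least 20 tags the median log2 fold change was 0.66, and 10 were above 0. VTN, vitronectin, had 40 and 271 tags (2.90 on the log2 scale, adjusted p = 1.13e-46, Fisher's exact test). Complement C3 had 85 and 141 tags, APOH 43 and 97 tags and coagulation factor F5 37 and 72 tags, the last of which was not called per clean tag. At an assumed coefficient of 0.1, edgeR's exact test kept 1 of the 4 liver-type calls, VTN, and C3, APOH and F5 had adjusted p of 0.0158, 0.00118 and 0.015. Of 15 stomach and intestine markers 8 were listed, with 3 higher (37.5%) and 0 lower, and 4 of the 5 with at least 20 tags were above 0. MUC13, a membrane mucin, had 15 and 148 tags (3.44 on the log2 scale, adjusted p = 3.93e-30, Fisher's exact test), the tight junction gene CLDN2 46 and 261 tags, and the cadherin gene CDH17 48 and 145 tags. All 3 stayed called at a coefficient of 0.1, and CDH17 was lost at 0.2. HNF4A had 4 tags in both libraries beside these differences, and a link of the markers to the factors was not tested.

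Lung cell markers were called in both directions by Fisher's exact test, and 4 of these calls were lost with edgeR's exact test at an assumed coefficient of 0.1. Those were CTSH, CAV1, CAV2 and AGR2, with adjusted p of 0.0218, 0.235, 0.0277 and 0.115. Of 15 alveolar type II markers 10 were listed, with 1 higher, the protease gene CTSH (82 and 134 tags), which was not called per clean tag. Of 10 alveolar type I markers 6 were listed, with EMP2 higher (48 and 125 tags) and CAV1 (964 and 678 tags) and CAV2 (1076 and 642 tags) lower. Of 14 airway markers 5 were listed, with AGR2 higher (511 and 644 tags) and the mucin gene MUC5B lower (136 and 49 tags). Of 10 basal and squamous markers 5 were listed, with KRT15 higher (7 and 39 tags) and 0 lower. Over all genes 9.53% were higher and 12.2% lower, and lists this short were not tested against those shares. At an assumed coefficient of 0.2, edgeR's exact test called 0 genes of each of these lists.

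General epithelial markers were divided as well. Of 12 such markers 11 were listed, with KRT8 and KRT19 higher and KRT18, KRT7 and CLDN1 lower, and their summed tags were 22593 and 22663. The shares were 18.2% higher and 27.3% lower, against 9.53% and 12.2% of all genes, and were not tested against each other. KRT8 and KRT18 stood above 99.9% of the genes in both libraries, a depth at which a small difference is called. The ratio of KRT18 was 0.841. KRT18 was not called with edgeR's exact test at a coefficient of 0.1 (adjusted p = 0.44), and 0 of these markers were called at 0.2. CDH1, E-cadherin, had 50 tags in each library.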

How the data were processed

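Digital gene expression tags of 2 A549 libraries, 1 for each hairpin, were used. The authors counted tags of oligo(dT)-selected mRNA at BGI, and the deposited counts are raw numbers for each Entrez Gene ID. The submitters' processing notes name hg19, and the aligner is not given in the sources used here. The authors' TPM, with 0 tags written as 0.01, was used only for the total of clean tags (3516266 in shRNA-Con, 3456234 under the SOX2 label). The deposited log2 ratio, p-value and FDR columns hold the authors' own comparison and were not used.

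Counts were divided by gene tags, with counts under 3 set to 3 for log2 fold changes. Genes were compared by Fisher's exact test (two-sided), with p-values adjusted by Benjamini and Hochberg's method across all 13137. Ratios and shares carry 95% Clopper-Pearson intervals and levels exact Poisson intervals. Tests ran in scipy 1.17.1 (Python 3.11.15), while edgeR 4.0.16 and DESeq2 1.42.0 ran in R 4.3.3. The steps were tested on simulated data. Rows without a symbol held 0.0535% and 0.0372% of the gene tags. The genes named are the 9 factors, SOX2, up to 6 called genes of each list by tags, and uncalled genes with the most tags from the lineage list and the factors' families. SFTPD, LPCAT1, ABCA3 and CDH1 were chosen after their values were seen. The factors and the 17 gene lists were chosen with earlier results of these data known. Alternatives were TMM, median-ratio and clean-tag scaling, at least 10 tags, 0.5 added to each count, an FDR of 0.05, and edgeR's exact test with assumed coefficients of variation of 0.1, 0.2 and 0.4. The values of 2 list genes are not reported here. A comparison of the factors' protein sequences was not made here.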

Additional observations from a re-analysis of the deposited data

How the results depend on the processing

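NR2F6, FOXA1 and GATA3 kept a log2 fold change of at least 1 under TMM, median-ratio and clean-tag scaling and with 0.5 added to each count, and all 3 stayed called with these scalings, with at least 10 tags and at an FDR of 0.05. With edgeR's exact test the number of the 9 factors called fell from 3 to 2, 1 and 0 at assumed coefficients of 0.1, 0.2 and 0.4, and GATA3 was lost first. The log2 fold change of NR2F2 turned to -0.05 with clean tags, and that of ELF3 to 0.01 with TMM factors and 0.00 with the median ratio.

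Over all genes 2849 were called, against 1166, 113 and 0 at coefficients of 0.1, 0.2 and 0.4 with edgeR's exact test, where 627 had an unadjusted p under 0.05 at 0.4, and 4902 at an FDR of 0.05. The lower share of calls was 56.1%, and 49.4% with TMM factors, 49.7% with the median ratio, 66.6% with clean tags and 42.5% at a coefficient of 0.2. Of 40 called list genes other than the 9, clean tags lost 2, and coefficients of 0.1, 0.2 and 0.4 lost 16, 36 and 40. No paired analysis was possible because the design holds 1 library per hairpin, and leaving out a library would leave an arm empty. The spread between cultures is unknown, and depth limits HNF4A and GATA6 most.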
